A study of Mus musculus with 5 samples.

Results

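Synapsins and the integral membrane proteins of the synaptic vesicle were examined at 7 mouse genes: Syn1, Syn2 and Syn3 (synapsins), Syp (synaptophysin) and Sv2a, Sv2b and Sv2c (synaptic vesicle glycoprotein 2 proteins). They were chosen by name out of 22380 protein-coding genes, with earlier results of these data known. A REST peak was given to a gene when it overlapped the gene body or lay within 50 kb of the gene's start. REST (RE1-silencing transcription factor) was immunoprecipitated from sonicated chromatin with the monoclonal antibody 12C11 and sequenced (ChIP-seq), which gave a list of called peaks per library. The chromatin came from whole pancreas of untreated wild-type embryos on a mixed background with C57BL/6. There were 3 libraries at E18.5 (A, B and C) from pools of 3–4 pancreases and 2 libraries at E13.5 (A and B) from pools of 4–6. Whole organs were pooled, so the bound cell type was not measured.

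REST represses transcription from a DNA element, RE1, that many neuronal genes carry, and so holds these genes silent outside neurons. Synapsins are phosphoproteins that coat synaptic vesicles and hold them in the reserve pool. Synaptophysin spans the vesicle membrane and accompanies the vesicle SNARE synaptobrevin, and SV2 proteins are transporter-like glycoproteins that regulate calcium-triggered release. Endocrine cells carry small synaptic-like vesicles, and synaptophysin is a standard marker of pancreatic islets and neuroendocrine cells. Syn1 is a classic example of a neuronal gene with an RE1 near its start.

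REST peaks were called at only Syp and Syn2 of the 7 genes, and only at E13.5. Each had 1 site, which was called in none of the 3 E18.5 libraries and in both E13.5 libraries, and each site held an RE1 match at its centre. The other 5 genes had no peak in any of the 5 libraries. RE1 matches outside all peaks were found at Syn1, at a second place in Syn2, in Syn3 and in Sv2b.

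The RE1 elements are shown because genes with a peak and genes without one both hold them. A 21-letter consensus was derived from the sites called in both E13.5 libraries, without the sites of these genes, and both strands were searched for it, allowing up to 5 mismatches. The consensus and the 6 matches within the rule's windows are given 5′ to 3′ in mm9, with capitals where the letter equals the consensus.
Consensus: TTCAGCACCATGGACAGCGCC
Syp, chrX:7215863-7215883 (+), in the E13.5 peaks: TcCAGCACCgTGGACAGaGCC
Syn2, chr6:115129018-115129038 (+), in the E13.5 peaks: aTCAGtACCcTGGAgAGCtCC
Syn1, chrX:20498256-20498276 (-), in no peak: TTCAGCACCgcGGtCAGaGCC
Syn2 within Timp4, chr6:115197291-115197311 (+), in no peak: cTCtGCACCAaGGACAGgtCC
Syn3, chr10:85649583-85649603 (+), in no peak: TTCAGatgCAaGaACAGCGCC
Sv2b, chr7:82363233-82363253 (+), in no peak: TgCAGCtgCATGGACAGttCC

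The surroundings of the element are shown at Syp, with the whole 21-letter match in capitals. This element lies directly behind the end of a first exon annotated from the gene start. The sequence is the 87-bp stretch of the E13.5 A peak that follows that exon (mm9, chrX:7215855-7215941, plus strand), and 65.5% of its bases are G or C.
Syp: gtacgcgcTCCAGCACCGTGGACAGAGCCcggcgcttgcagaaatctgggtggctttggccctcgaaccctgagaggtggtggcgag

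The libraries differed in the number of peaks. The E18.5 lists held 541, 417 and 226 peaks for A, B and C, and the E13.5 lists 1400 and 1333 for A and B. Median peak lengths were 311, 319 and 394.5 bp at E18.5 and 161 and 483 bp at E13.5. Because the depth of sequencing is unknown, a missing peak means only that none was called. Each peak carried a score of unknown unit, which was therefore read as a percentile within its own library, where 100 is the highest.

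**Figure D1:**
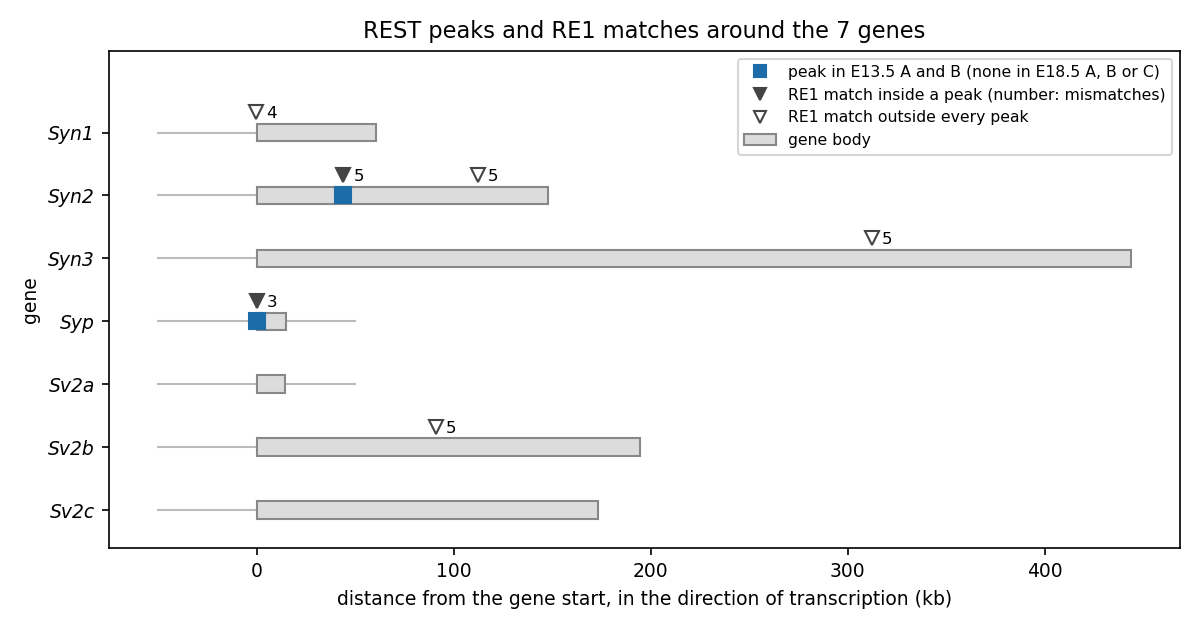
Gene bodies (grey bars) and 50-kb windows (grey lines) of the 7 genes, drawn from the gene start in the direction of transcription (kb). Blue squares are sites called in both E13.5 libraries, and triangles are RE1 matches with their number of mismatches, filled where the match lies in a peak. Peaks sit at Syp (0.276 kb) and Syn2 (44.1 kb) only.

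Syp encodes synaptophysin, an abundant membrane protein of the synaptic vesicle. Its gene lies on the X chromosome (X, 7215597 to 7230382, plus strand) and is 14.8 kb long. No peak was called there in E18.5 A, B or C, whereas E13.5 A had a peak with a score of 13 and E13.5 B a peak with a score of 8. The peaks spanned 187 bp in E13.5 A (7215755 to 7215941) and 411 bp in E13.5 B (7215693 to 7216103). Both overlapped the first exon, and the site centre was 276 bp downstream of the gene start, with no other coding gene overlapping Syp.

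The Syp site was weak by rank, and the E13.5 libraries placed it differently. It stood at percentile 44.8 in E13.5 A, where 743 of 1400 peaks scored higher, and at percentile 4.46 in E13.5 B, where 1252 of 1333 scored higher. The gap of 40.4 percentile points compares with a median gap of 11.2 points over the 1186 sites shared by the E13.5 libraries, and 53 of these sites (4.47%) had a gap as large. By mean E13.5 percentile (24.6) the Syp site was in place 1012 of the 1186.

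The RE1 at Syp was the best match of the 6. It differed from the consensus at T2C, A10G and C18A, counted from the 5′ end of the element with the consensus base first. Its centre coincided with the site centre (0 bp). The element began 8 bp after the end of a first exon annotated from the gene start. Its centre was also annotated as coding sequence of Syp, and the nearest annotated transcript start lay 25 bp upstream of the site centre. Which transcript holds this coding sequence was not resolved. The 50 bases around it occur once in the reference.

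Syn2 encodes synapsin II, which tethers vesicles in the reserve pool. Its gene (chromosome 6, 115084920 to 115232644, plus strand, 147.7 kb) contains Timp4, which encodes an inhibitor of metalloproteinases, and overlaps the predicted gene Gm17482. No peak was called in E18.5 A, B or C, whereas E13.5 A had a peak with a score of 17 and E13.5 B a peak with a score of 19. The peaks spanned 206 bp in E13.5 A (115128942 to 115129147) and 503 bp in E13.5 B (115128769 to 115129271). The site centre lay in an intron, 44.1 kb downstream of the gene start.

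The Syn2 site ranked in the middle of the E13.5 lists in both libraries. It stood at percentile 62.6 in E13.5 A, with 499 peaks scoring higher, and at percentile 57.3 in E13.5 B, with 550 scoring higher. The gap of 5.33 points was below the median gap. By mean E13.5 percentile (59.98) it was in place 505 of 1186. The nearest start of any coding gene was that of Syn2 itself, although the start of Gm17482 lay 48.3 kb away and so received the same site. Its RE1 was at -4 bp from the site centre and differed from the consensus at T1A, C6T, A10C, C15G and G19T.

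**Figure D2:**
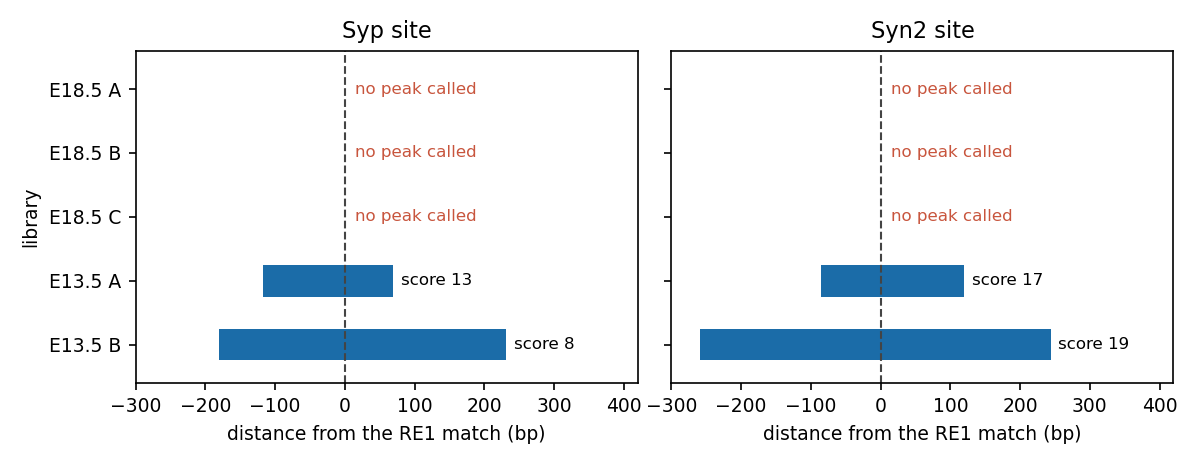
Extent of the called peak at the Syp and Syn2 sites in each library, in bp from the centre of the RE1 match (dashed line), with the deposited score beside each bar. No peak was called in the 3 E18.5 libraries, and in both E13.5 libraries the peak covers the RE1 match.

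The 2 genes called per E13.5 library were set against the background of all coding genes under the same rule. Because the members were chosen with earlier results of these data known, the shares are descriptions and no enrichment was tested. In E18.5 A, B and C, 0 of 7 members had a peak, against 3.27%, 3.05% and 1.97% of all coding genes, or 4.96% for any E18.5 library. In E13.5 A and B, 2 of 7 (28.6%) had a peak, against 7.83% and 7.57% of all coding genes. For the same site called in both E13.5 libraries the members' share was again 2 of 7 and that of all coding genes 6.89%. Among the 932 X-linked coding genes 16 (1.72%) had a site in both E13.5 libraries. Syp was one of them, and 6 others were its neighbours, which received the Syp site itself by the same rule. By window length, a site of both E13.5 libraries was held by 6.31% of genes in the shortest class (Syp, Sv2a), 6.03% in the next, up to 150 kb (Syn1), 8.71% at 150–300 kb (Syn2, Sv2b and Sv2c) and 19.97% over 300 kb (Syn3).

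The comparison of stages asked whether the members lost or gained called peaks between E13.5 and E18.5. The E18.5 libraries had 0, 0 and 0 members with a peak and the E13.5 libraries 2 and 2. This was a difference of -2 members (E18.5 minus E13.5, n = 3 and 2 libraries) with no overlap between the stages. The shares of all coding genes did not overlap either, at 3.27%, 3.05% and 1.97% in E18.5 A, B and C and 7.83% and 7.57% in E13.5 A and B. An exact two-sided permutation test of the member counts over libraries gave p = 0.2, the smallest value this design allows. The member difference therefore did not pass 0.05. When each library was cut to its 226 highest-scoring peaks, the members had no peak in any library and the difference was 0. The ranks fixed this outcome, since at least 499 peaks scored above each member peak in its E13.5 library. The cut therefore cannot decide whether the stages differ.

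The E18.5 lists were shorter than the E13.5 lists, and a missing peak was common at sites of like rank. Of the 126 shared E13.5 sites within 5 percentile points of the Syp site, 9 (7.14%, exact 95% binomial interval 3.32–13.1) were also called at E18.5 in any library. Of the 146 such sites around Syn2, 55 (37.7%, interval 29.8–46.1) had one, with 32 in E18.5 A, 27 in B and 11 in C. Across all shared E13.5 sites the share with an E18.5 peak was 7.56% in the lowest of 10 equal classes by rank and 96.6% in the highest. Most sites of like rank to Syp, and most of like rank to Syn2, therefore had no E18.5 call. Fewer called peaks and less binding cannot be told apart without read depth.

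**Figure D3:**
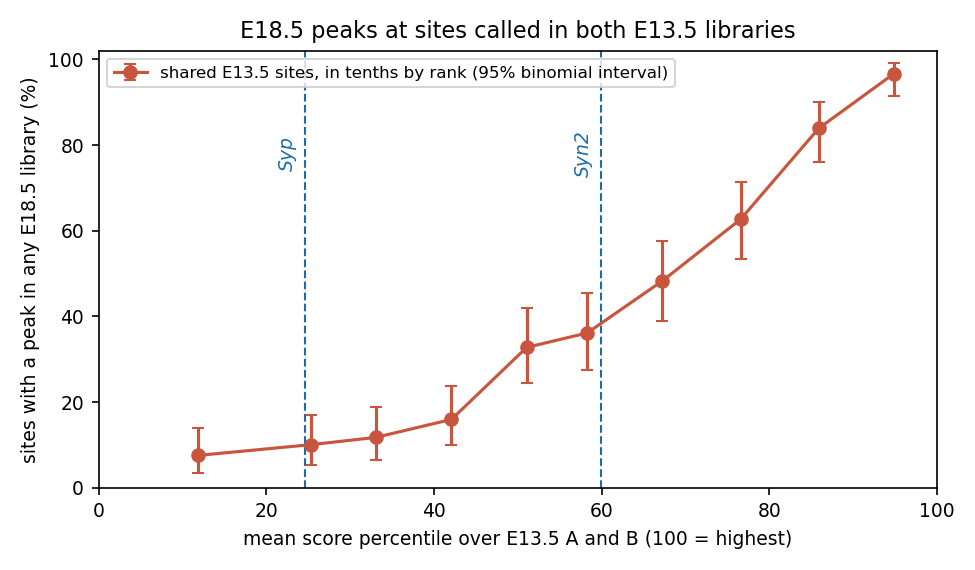
Percent of sites called in both E13.5 libraries that were also called in any E18.5 library, by mean E13.5 score percentile in 10 equal classes (points, with exact 95% binomial intervals for counting error). Dashed lines mark the Syp site (24.6) and the Syn2 site (59.98), and the share reaches 96.6% in the highest class.

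Syn1, the X-linked synapsin I gene (X, 20437637 to 20498130, minus strand, 60.5 kb), had no peak in E18.5 A, B or C or in E13.5 A or B. The nearest site of any library was 12753 kb away and was called in E18.5 B only. Its RE1 match lay at -136 bp from the gene start, upstream of the transcribed region, and differed from the consensus at A10G, T11C, A14T and C18A. The 50 bases around it occur once in the reference. Syn1 overlaps Timp1, another metalloproteinase inhibitor gene, and Araf, a kinase gene.

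To compare the elements by more than a count of mismatches, each match was scored with the base frequencies of the elements in shared E13.5 sites (bits, higher is closer), a measure chosen after the values were seen. The match at Syn1 scored 24.42 bits and the bound match at Syn2 24.36 bits, in places 861 and 870 among the 7417 genome matches with up to 5 mismatches. Of the genome matches within 1 bit of the Syn1 score, 177 of 333 (53.2%) lay in a site of both E13.5 libraries, and 36 of 58 (62.1%) did so within 5 kb of a gene start. For the Syn2 score the share was 173 of 329 (52.6%). The base frequencies came from sites of both E13.5 libraries themselves, so these shares can run high and are descriptions. On the X chromosome 0 of the 4 other matches of like score to Syn1 were in such a site, and on the other chromosomes 177 of 329 (53.8%). X matches just above this range went both ways. Those nearest to the starts of Gripap1 (25.73 bits) and Avpr2 (26.67 bits) were in such a site. Those nearest to Gm15262 (25.88 bits) and Bex2 (26.02 bits) were not. The X-linked Syn1 element was not called, and the autosomal Syn2 element of nearly the same score was called in both E13.5 libraries. The part of the chromosome in this was not tested.

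The match at Syp scored 27.57 bits, and 226 of the 273 genome matches of like score (82.8%) were in a site of both E13.5 libraries. Syp and Syn1 both carry A10G and C18A, substitutions found in 11.4% and 13.8% of elements at shared E13.5 sites. T2C at Syp was found in 14.4%. At Syn1, T11C was found in 29.8% and A14T in only 3.32%, where the consensus A stood in 90.3%. At Syn2 the rarest letters were C6T (10.98%) and C15G (11.7%).

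**Figure D4:**
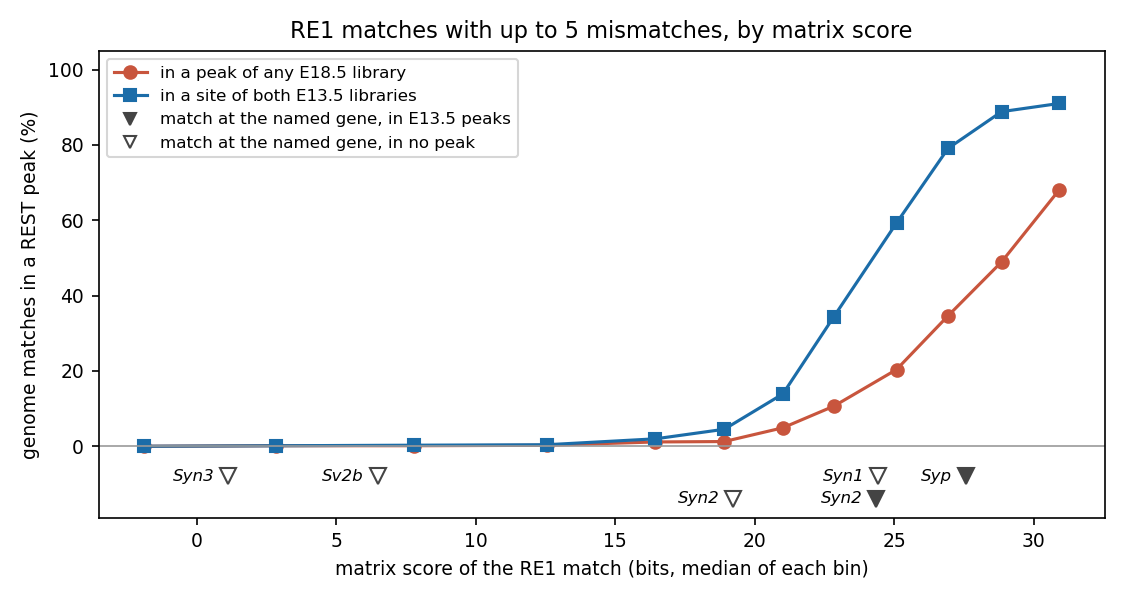
Percent of genome RE1 matches with up to 5 mismatches that lie in a peak of any E18.5 library (red) or in a site of both E13.5 libraries (blue), by matrix score in bits, and below the axis the scores of the 6 matches at the 7 genes (filled: in E13.5 peaks). Syn1 (24.42) and the bound Syn2 match (24.36) share a score, while the matches in Syn3 and Sv2b lie where almost no genome match is called.

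The other matches were weaker. The second match in Syn2, 112.4 kb from its start and within the coding sequence of Timp4, scored 19.23 bits, a score at which 17 of 397 genome matches (4.28%) were in a shared E13.5 site. The match in Syn3, 312.0 kb from its start in an intron, scored 1.13 bits, and 1 of 240 matches like it (0.417%) was in such a site. The match in Sv2b, 90.9 kb from its start in an intron, scored 6.48 bits, with 1 of 497 (0.201%). Both carry A7T and C8G, at positions where 99.6% and 99.7% of the elements at shared sites have the consensus letter. No peak covered any of these 3 matches.

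Syn3, which encodes synapsin III, the synapsin expressed early in neuronal development, spans 443.8 kb of chromosome 10 (85517870 to 85961641, minus strand) and contains Timp3. It had no peak in any library, and the nearest site was 1088 kb upstream, called in E18.5 B, E13.5 A and E13.5 B. Its best RE1 match within 2 kb of the start had 8 mismatches, as had that of Syn2. Of the 3 synapsin genes, each paired with a Timp gene, only Syn2 had a called site.

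The 3 SV2 genes had no peak within the rule. Sv2a, the widely expressed member of the family, is the shortest of the 7 genes (chromosome 3, 95985074 to 95999444, plus strand, 14.4 kb), and its nearest site was 1701 kb away in both E13.5 libraries. Sv2b (chromosome 7, 82259783 to 82454148, minus strand, 194.4 kb) had its nearest site 287.1 kb downstream of its start, beyond the gene end, in E13.5 A only, with a score of 7 (percentile 9.18). Sv2c, the member with the most restricted expression in brain (chromosome 13, 96729398 to 96902532, minus strand, 173.1 kb), had its nearest site 1254 kb away in both E13.5 libraries. Within 2 kb of the starts the best RE1 matches had 8, 7 and 7 mismatches at Sv2a, Sv2b and Sv2c. Neither Sv2a nor Sv2c had a match with 5 or fewer in its whole window.

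Both member sites lay in gene bodies, so neither depended on the 50-kb limit. Just outside the rule, the next site near Syp was 156.7 kb downstream, within a Gripap1 intron, with no E18.5 peak and scores of 11 and 18 in E13.5 A and B. The site 287.1 kb from the start of Sv2b was the only other one within 300 kb of a member's start. An extended-domain rule in the manner of GREAT, which reaches up to 1 Mb, added this Sv2b peak to E13.5 A and nothing to the other libraries.

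Matches in the whole genome give the setting for these 7 genes. Matches with 3 mismatches, as at Syp, were in a peak of any E18.5 library in 130 of 343 cases (37.9%) and in a site of both E13.5 libraries in 254 (74.1%). With 4 mismatches, as at Syn1, the counts were 142 of 1150 (12.3%) for E18.5 and 343 (29.8%) for E13.5. With 5, as at the bound Syn2 site, they were 88 of 5821 (1.51%) for E18.5 and 236 (4.05%) for E13.5. Of the shared E13.5 sites searched, 842 of 1183 (71.2%) held a match with up to 5 mismatches in the 500 bp around their centre, as did both member sites. On the X chromosome, where Syp and Syn1 lie, 3 of 25 matches with up to 4 mismatches were in a site of both E13.5 libraries (12.0%, exact 95% binomial interval 2.55–31.2), against 683 of 1571 on the other chromosomes (43.5%, interval 41.0–46.0). The 3 were those at Syp, in Gripap1 and at -22555 bp from the start of Avpr2. The sets differed in closeness of match, with 4 mismatches in 22 of the 25 and in 1128 of the 1571. Among matches with 4 mismatches, 1 of 22 on the X chromosome and 342 of 1128 (30.3%) elsewhere were in such a site. Many of the X matches scored under 18 bits, but the scores of the matches on the other chromosomes were not set beside them. Of all genome matches with up to 5 mismatches at 15–18 bits, 1.98% were in such a site. The part of the chromosome in this was not tested.

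Close relatives of the members were taken from a list of 9 genes of the synaptophysin-synaptogyrin family and of SV2-related transporter-like proteins. Of these, Svop and Sypl2 (2 of 9) were called at E18.5 and, at the same site, in both E13.5 libraries, and Syngr1, Syngr2, Syngr3, Syngr4, Synpr, Sypl and Svopl had none. The share of all coding genes was 4.96% for any E18.5 library and 6.89% for a site of both E13.5 libraries. The Svop site (SV2-related protein) lay 303 bp from its start and stood at percentiles 27.0 and 66.3 in E18.5 A and B and 77.6 and 77.7 in E13.5 A and B. The Sypl2 site, in an intron 11.7 kb from its start, stood at percentiles 76.7 and 1.92 in E18.5 A and B and 49.7 and 34.5 in E13.5 A and B. The start nearest to the Sypl2 site was that of Atxn7l2.

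A second list held 28 further genes of vesicle release, of which 27 were found in the annotation. Of the 27, 9 (33.3%) were called in an E18.5 library and 12 (44.4%) had a site in both E13.5 libraries, while Syt1, Rab3a and Amph had a peak in 1 E13.5 library only and 12 had none. Against this, 4.96% of all coding genes were called in an E18.5 library and 6.89% had a site of both E13.5 libraries. The vesicle SNARE genes Vamp1 and Vamp2 were among those with none, as were the plasma membrane syntaxin gene Stx1a and the vesicular transporter genes Slc17a7 and Slc18a2. Genes of the release machinery had the highest ranks. Snap25, a SNARE of the plasma membrane, had a site 880 bp from its start in all 5 libraries, at percentiles 92.9, 91.6 and 84.3 at E18.5 and 99.1 and 97.2 at E13.5. Unc13a, a priming factor, had a site at its start in all 5, at percentiles 84.6, 95.4 and 94.7 at E18.5 and 94.3 and 93.4 at E13.5.

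The next in rank were called at both stages as well. Rph3a, a Rab3 effector, reached percentiles 48.2 and 53.4 in E18.5 A and B and 82.1 and 92.9 in E13.5 A and B. Cplx2, a complexin that clamps SNARE complexes, was called in all 5 libraries, with 76.7, 90.05 and 75.0 at E18.5 and 82.1 and 81.5 at E13.5. Bsn, a scaffold of the active zone, was also called in all 5, with 76.7, 80.0 and 68.6 at E18.5 and 83.8 and 77.7 at E13.5. Scamp5, a secretory carrier membrane protein, had a peak in E18.5 B (53.4) and in both E13.5 libraries (69.7 and 77.7).

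Among the vesicular transporter genes, 2 had sites of ranks close to that of Scamp5. The best site of Slc32a1, the vesicular GABA transporter gene, was at -25.96 kb from its start and had no E18.5 peak and percentiles of 77.6 and 71.1 in E13.5 A and B, although another site at -40.2 kb was called in E18.5 C. Slc17a6, the gene of a vesicular glutamate transporter, had a site 36 bp from its start with no E18.5 peak and percentiles of 74.8 and 71.1 in E13.5 A and B. Syp and Syn2 shared the lack of an E18.5 peak with Slc17a6, Pclo and Synj1, the 3 of the 12 genes with none in their windows. In rank these genes differed, with mean E13.5 percentiles of 72.95, 33.1 and 49.6 for Slc17a6, Pclo and Synj1. Those of Syp and Syn2 were 24.6 and 59.98. The list was chosen with earlier results of these data known, so its counts are descriptions.

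**Figure D5:**
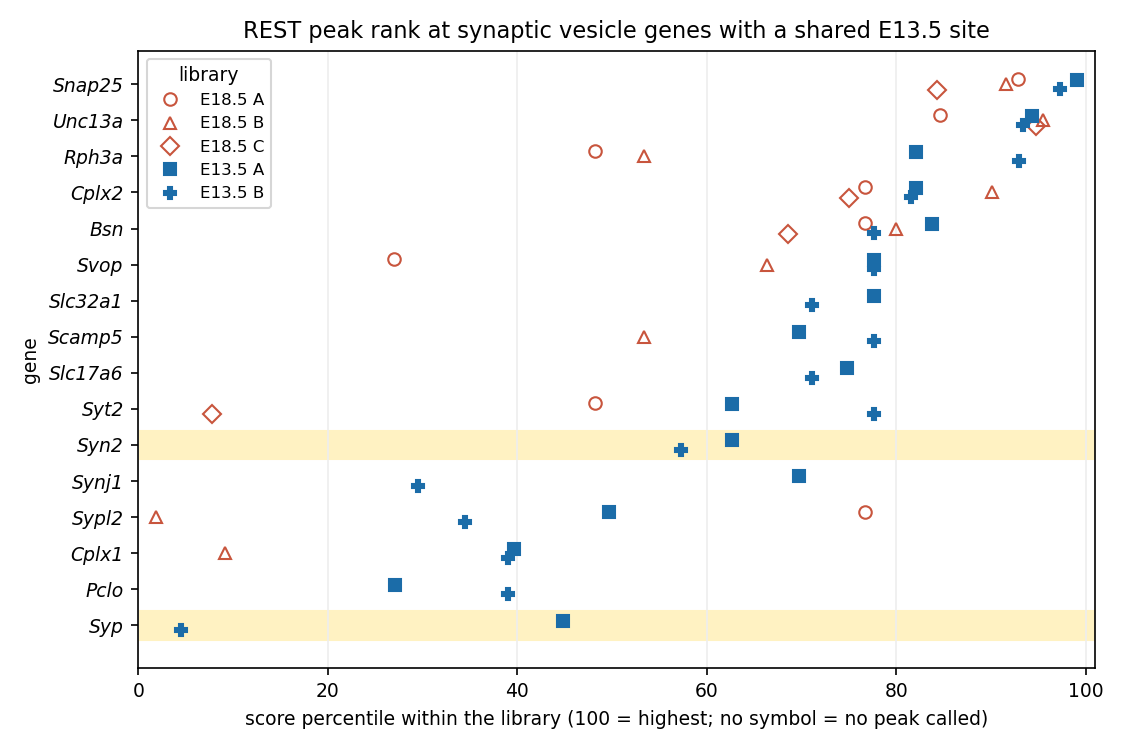
Score percentile within each library at the best E13.5 site of the members (shaded) and of the listed vesicle genes with a site in both E13.5 libraries, ordered by mean E13.5 percentile. Red open symbols are E18.5 libraries and blue filled symbols E13.5 libraries. Syp has the lowest mean E13.5 percentile of the genes plotted (24.6), and neither Syp nor Syn2 has an E18.5 symbol.

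Genes alike in pattern were sought by the mean absolute difference of best-site percentiles over the 5 libraries. For Syp the nearest genes, at a difference of 0 points, included Cacna1f, Ccdc22 and Magix, which start within 50 kb of the Syp site and so received the same peaks, as 6 coding genes did. For Syn2 the nearest was Gm17482, which also received its site. Among 2191 genes with other sites the nearest to Syn2 were 5430405G05Rik, Psmf1 and Rad21l (0.59 points each), neighbours that shared 1 site on chromosome 2. Among 2186 genes with other sites the nearest to Syp were Nell1 and Rpl30-ps8 (0 points each) and Nova1 (0.77 points). Their nearest peaks lay 123.4, 5.27 and 121.8 kb from their starts. Scores were whole numbers, so these differences of 0 were ties. As at Syp, 60 peaks in E13.5 A scored 13, and 44 in E13.5 B scored 8. All of the genes named here were called in no E18.5 library and in both E13.5 libraries.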

How the data were processed

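Single-end reads of 50 bp were aligned by the authors to mm9 (Bowtie2 2.2.5, 1 mismatch allowed), filtered at a mapping quality of at least 10, and used for peak calling with MACS2 2.1.0 relative to input DNA. The processing notes also name SAMtools and NCBI36. The deposited lists, 1 per library, state duplicate removal and a 10% false discovery rate. The score deposited by the authors is a whole number of unknown unit and was used only to rank peaks within a library. Overlapping entries of a list were merged (2 to 7 per library), and peaks of different libraries overlapping by 1 bp were joined into 1860 sites. Positions are mm9, counted from 1, with GENCODE genes of the same build. The gene start is the outermost annotated start.

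The RE1 consensus came from 1145 sites called in both E13.5 libraries, leaving out the members and chromosome 18. Its matrix served for the scores in bits. Consensus and matrix came from sites of both E13.5 libraries, so shares of matches in such sites can run high. Sites on unplaced sequence were not searched. Stages were compared by an exact two-sided permutation test over libraries. Intervals are exact binomial and cover counting error over sites only. Percentages of all coding genes under the same rule stand beside the counts. Genes were named by rule: all members, genes overlapping them or nearest to their sites, listed vesicle genes with a peak in both E13.5 libraries (up to 8 by percentile), and the 3 most alike genes. Some listed vesicle genes were named outside this rule, and those without a site only as examples. Members and lists were chosen with earlier results of these data known. The matrix score and the alike genes with other sites were added after the data were seen. Python 3.11.15, NumPy 2.4.6 and SciPy 1.17.1 were used, and the procedures were tested on simulated data. A withheld sequence and gene are not reported here.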

Additional observations from a re-analysis of the deposited data

How the results depend on the processing

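The difference between stages in members with a peak (-2, E18.5 minus E13.5) and in member sites per library kept its size with gene bodies only and with a 100-kb window. Both were -1 with a 5-kb window (Syp alone) and -1 with the upper 50% of each list by score (Syn2 alone). Both were 0 with equal numbers of top-scoring peaks. The GREAT-type domain gave -2.5 members. Leaving out each library in turn gave -2 throughout (lowest and highest value), which was fixed by the equal counts within each stage. Without 1 E18.5 library the exact permutation p was 0.333, the smallest that design allows. Letters shared between stages name different embryos. With the replicate block (A with A, B with B) the difference was -2, again fixed by the equal counts, with an exact permutation p of 0.5. Of the member sites called in both E13.5 libraries (2), 0 were left when peaks had to overlap by 50% of both lengths, since the E13.5 B peaks were more than double the length of those in A, and 1 (Syn2) in the upper 50% of the lists. Member sites with an RE1 match (2) numbered 2 with 6 mismatches or a 200-bp window, 1 (Syp) with 4 mismatches, and 1 with the left and right parts searched apart. The number of embryo pools limits every comparison of stages, and unknown depth limits every statement about a missing peak.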

Other observations

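Syn1 was not the only X-linked gene with a high-scoring RE1 match outside the shared E13.5 sites. Of the X-linked matches with up to 4 mismatches that scored 24 bits or more, those at Syp (27.57 bits), Avpr2 (26.67 bits) and Gripap1 (25.73 bits) were in a site of both E13.5 libraries. Those nearest to the starts of Dcx (30.85 bits), Bex2 (26.02 bits), Gm15262 (25.88 bits) and Syn1 (24.42 bits) were not. Dcx encodes the neuronal microtubule protein doublecortin, and its match had 2 mismatches. Over the whole genome, 91 of the 100 matches at 30 bits or more were in such a site. These genes other than Syp and Syn1 were chosen after their values were seen.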
